A study of Mus musculus with 21 samples.

Results

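Colon tumours of male App NL-G-F knock-in mice were compared with colon tumours of wild-type males, with 3 libraries on each side out of 21 libraries in the series, and all genes of the count table were considered. All animals were C57BL/6 mice. The tumours were raised with AOM/DSS, in which the carcinogen azoxymethane is combined with dextran sulfate sodium, an agent that injures the colon lining. The wild-type group carries the genotype label wild-type and the other the label App NL-G-F knock-in (KIKI in the sample descriptions), and both groups shared sex, strain and treatment. The labels gave neither the age of the animals nor whether a library came from 1 tumour or several.

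For orientation, normal colon of males of both genotypes (3 libraries each, labelled non-treatment, although the series describes tissue beside tumours or colon without them) and tumours and normal colon of wild-type females (3 libraries each, the tumours after AOM/DSS) were used as well. The App NL-G-F allele places the Swedish, Arctic and Iberian mutations in the mouse App gene together with a humanised amyloid-beta sequence. The allele is expressed from the App locus, so every cell that uses App carries it, in the brain and in the gut alike. A count for App holds reads of either allele, so it cannot show the genotype. Nothing in the labels says that the libraries of a group came from separate animals, so the p-values below rest on the spread between libraries. For the edgeR p-values this spread was estimated over all 21 libraries together and not over the 6 tumour libraries alone.

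In the colon, stem cells at the crypt base divide under Wnt signals and their daughters become absorptive colonocytes, mucus-secreting goblet cells, hormone-secreting enteroendocrine cells or chemosensory tuft cells. AOM/DSS tumours are epithelial growths with an overactive Wnt pathway, in which differentiated cells are usually fewer than in normal mucosa. They also hold fibroblasts, vessels, immune cells and, depending on how deep the sample was cut, smooth muscle with its nerves and glia. In such bulk samples, fewer cells of a type and less RNA per cell cannot be told apart.

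The 6 tumour libraries held between 3414123 counts (wild-type replicate 2) and 16801978 counts (knock-in replicate 2). The tumour label was checked with 20 Wnt target genes, whose levels were summed as CPM, counts per 1000000 counts of the scaled library size. The sums were 5413, 5096 and 5375 CPM in the 3 wild-type tumours against 984 to 2193 CPM in wild-type normal colon. In the knock-in tumours they were 4006, 2279 and 3501 CPM against 1015 to 2513 CPM in knock-in normal colon. The library labelled knock-in tumour replicate 2 thus lay within the range of knock-in normal colon on this list, although its sum over 20 proliferation genes, 2179 CPM, was above the 910 to 1096 CPM of knock-in normal colon. The knock-in tumours also differed more among themselves, with a biological coefficient of variation of 32.5% against 15.1% in wild-type tumours. The 45S ribosomal RNA precursor Rn45s took 7.63% ± 0.646 (SD, n = 3) of the counts in knock-in tumours and 11.33% ± 1.908 (SD, n = 3) in wild-type tumours, without overlap. Knock-in tumour replicate 3 carries number 154 in its description, among the last of the series, as do wild-type female tumours 2 and 3 (from 152 on). The part of these library differences in the results below was not tested, and the main counts that depend on a library are given with and without it.

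Of 15936 genes tested, 2315 (14.5%) differed between the genotypes in male tumours at an adjusted p under 0.05 in edgeR's quasi-likelihood test. The knock-in and wild-type CPM of 5800 genes (36.4%) did not overlap, with 20.3% higher and 16.1% lower in knock-in tumours. Of the called genes, 1482 (9.30% of the genes tested) were higher and 833 (5.23%) lower in knock-in tumours, so that 64.0% of the called genes were higher. With an offset for GC content and transcript length 1002 genes passed and 51.5% of them were higher. The higher genes had a median GC content of 44.6% and the lower genes of 56.2%, against 49.9% over all genes tested. Without knock-in tumour replicate 2, 429 genes passed, 318 higher and 111 lower. Without wild-type tumour replicate 1, 2 or 3 the number was 735, 1072 or 727. Without knock-in tumour replicate 1 it was 1567 and without replicate 3 it was 2251. The call was kept without each library in turn for 310 genes (1.95% of those tested), 221 higher (1.39%) and 89 lower (0.558%). In the authors' deposited table, 2964 genes had an adjusted p under 0.05 for this comparison, 1672 of them with a positive and 1292 with a negative log2 fold change.

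**Figure D1:**
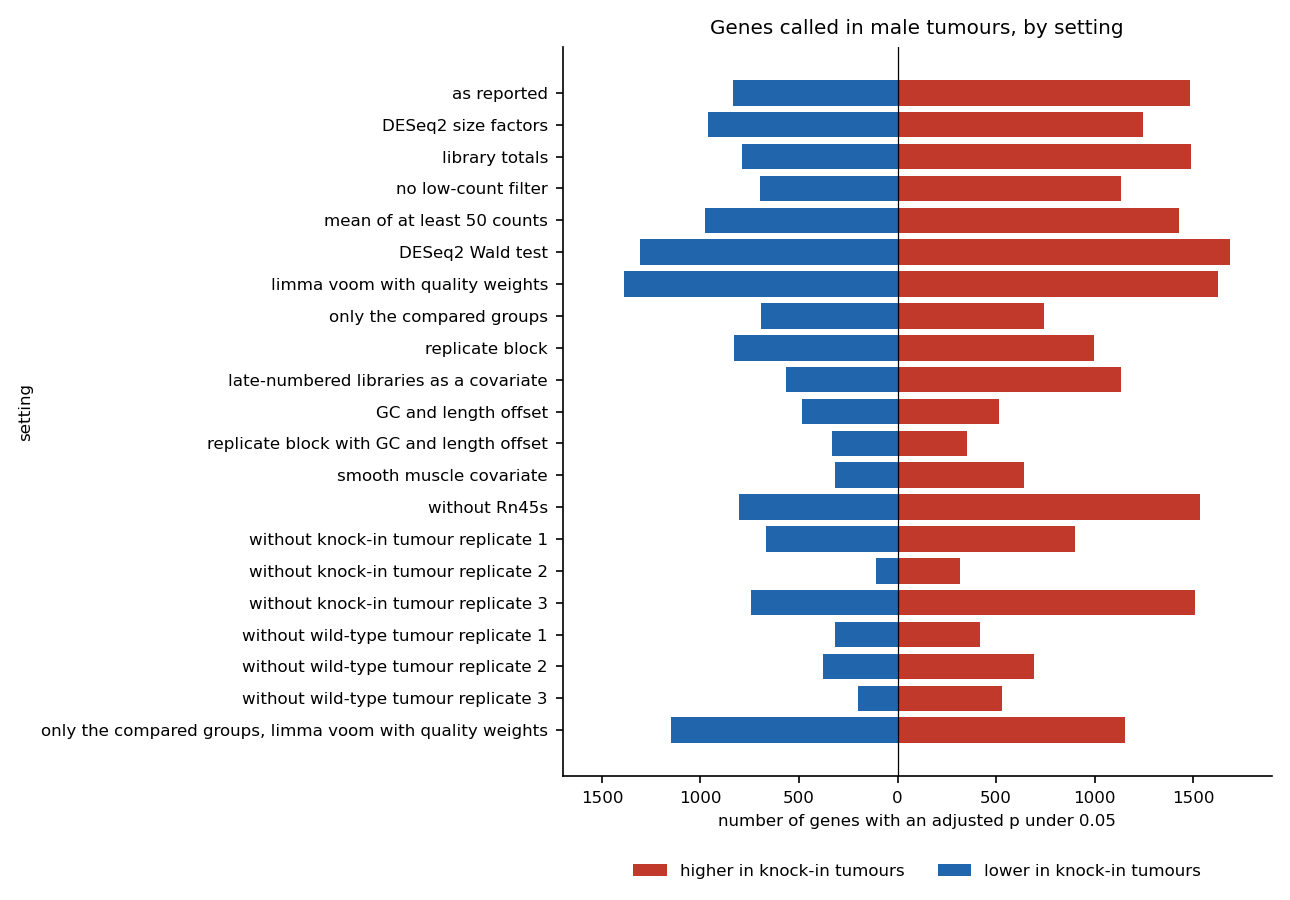
Number of genes with an adjusted p under 0.05 between knock-in and wild-type male tumours in each setting, with lower genes to the left and higher genes to the right of 0. The first bar holds the 1482 higher and 833 lower genes reported here, and the shortest, without knock-in tumour replicate 2, holds 318 and 111.

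App, the altered gene (chromosome 16, 84952666 to 85175255, GRCm38), came first. Its level was 539, 716 and 625 CPM in the knock-in tumours and 903, 923 and 1003 CPM in the wild-type tumours. Every knock-in tumour lay below every wild-type tumour, and the log2 fold change was -0.59 (SE 0.16, edgeR adjusted p 0.0251). The call was lost without knock-in tumour replicate 1 and without wild-type tumour replicate 2 or 3, with edgeR adjusted p of 0.0613, 0.0546 and 0.0865. The 3 wild-type female tumours averaged 618 CPM, close to the knock-in male mean of 627 CPM.

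Among the 17 listed genes of App and its processing, 2 were lower, App itself among them, and 2 higher. That is 23.5% called, against 14.5% over all genes tested. Aplp2, an App paralog, was the other lower gene (-0.46, SE 0.14, edgeR adjusted p 0.0366). Sorl1, a sorting receptor that binds App, was higher at 296, 297 and 298 CPM against 186, 224 and 224 CPM (0.49, SE 0.13, edgeR adjusted p 0.0190). Aplp1 stood at -0.41 (SE 0.22, edgeR adjusted p 0.207). The list's median was 0.15, against 0.05 over all genes tested, and without knock-in tumour replicate 2 or wild-type tumour replicate 1 neither higher call was kept, and without wild-type tumour replicate 2 or 3 neither lower call. The Aplp2 call was also lost without knock-in tumour replicate 2 or 3 or wild-type tumour replicate 1, and with only the compared groups in the model. Of the 71 tested genes within 10 megabases of App, 10 (14.1%) were higher in knock-in tumours and 0 lower, against 9.30% higher and 5.23% lower over all genes tested, a difference that was not tested. Within 5 megabases 2 of 19 genes (10.5%) were higher and 0 lower.

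Agt and Wdfy1 differed between the genotypes in tumours and in normal colon alike. Agt encodes angiotensinogen, the precursor of the angiotensin peptides. In tumours it measured 29.1, 24.8 and 23.8 CPM in knock-in and 7.70, 9.02 and 7.82 CPM in wild-type libraries. Normal colon held 46.6, 32.3 and 76.9 CPM in knock-in and 7.55, 11.2 and 14.3 CPM in wild-type males. Its log2 fold change was 1.68 in tumours (SE 0.29, edgeR adjusted p 0.00410) and 2.25 in normal colon (SE 0.28, edgeR adjusted p 0.00184). Wdfy1 encodes an endosomal adaptor of Toll-like receptor signalling. It measured 38.8, 26.01 and 24.6 CPM in knock-in and 55.0, 58.2 and 56.6 CPM in wild-type tumours. The log2 fold change was -0.92 in tumours (SE 0.14, edgeR adjusted p 0.00350) and -1.20 in normal colon (SE 0.14, edgeR adjusted p 0.00105). Both genes passed in tumours under all 20 alternative settings (other scalings, count filters, tools and covariates, and each tumour library left out), and neither showed a difference between the tissues that passed the test (edgeR adjusted p 0.376 for Agt and 0.385 for Wdfy1). They were the only 2 genes called between the genotypes in male normal colon, 0.0126% of those tested, 1 higher and 1 lower (0.00628% each), while 533 had an unadjusted p under 0.05 there.

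**Figure D2:**
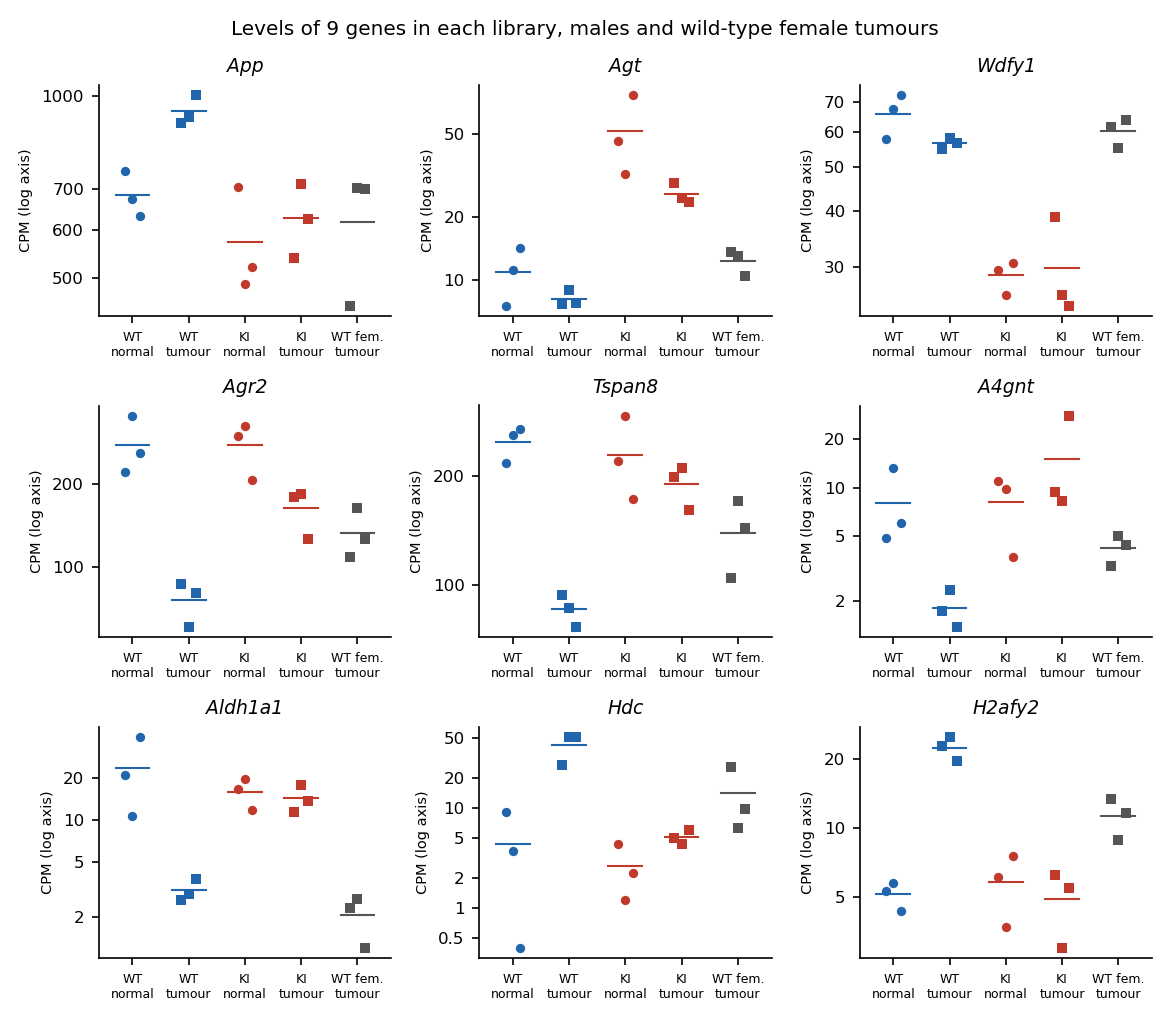
Level of 9 genes in CPM (log axis) in each library of male wild-type (WT, blue) and knock-in (KI, red) normal colon (circles) and tumours (squares) and of wild-type female tumours (grey), with a line at each group mean. Agt and Wdfy1 are split by genotype in both tissues, whereas in Hdc and H2afy2 the 3 wild-type male tumours stand above every other male library.

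Genes of differentiated epithelium mostly had higher levels in knock-in tumours, with a minority of each list past the threshold. All 14 goblet cell genes had a positive log2 fold change, with a median of 0.96 against 0.05 over all genes tested. Of these, 5 rose and 0 fell, or 35.7% called against 14.5% over all genes tested. Muc2, the main gel-forming mucin of the colon, measured 7888, 4667 and 2836 CPM in knock-in and 2356, 1636 and 1909 CPM in wild-type tumours. The groups did not overlap, and Muc2 passed (log2 difference 1.38, SE 0.44, edgeR adjusted p 0.0466). Agr2, a disulfide isomerase needed for mucin folding, measured 180, 184 and 127 CPM against 86.5, 60.8 and 80.4 CPM (1.10, SE 0.22, edgeR adjusted p 0.00799). Galnt12, which adds the first sugar of mucin O-glycans, measured 69.8, 78.0 and 52.8 CPM against 37.1, 30.0 and 31.8 CPM (1.01, SE 0.19, edgeR adjusted p 0.00458). Agr2 and Galnt12 passed in every alternative setting. The lectin gene Zg16 and the granule-docking gene Sytl2 passed too (1.64 and 0.78, edgeR adjusted p 0.0398 and 0.0448), but knock-in and wild-type values of Zg16 overlapped. The defining genes Tff3 and Clca1 had log2 fold changes of 0.74 and 0.89 (edgeR adjusted p 0.0752 and 0.0512). The count was 2 of 14 without knock-in tumour replicate 2 or any one of the wild-type tumours, 3 without knock-in replicate 1 and 9 without knock-in replicate 3.

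Absorptive colonocyte genes showed the same direction, with 4 of 20 higher, 0 lower and a median log2 fold change of 0.91, where 9.30% of all genes were higher. The water channel gene Aqp4 measured 107, 154 and 108 CPM in knock-in and 28.2, 19.5 and 22.3 CPM in wild-type tumours (2.38, SE 0.54, edgeR adjusted p 0.0137). Guca2a, which encodes the gut peptide guanylin, rose by 0.87 on the log2 scale (SE 0.25, edgeR adjusted p 0.0311). Lypd8, a secreted protein that keeps bacteria off the epithelium, rose by 0.57 (SE 0.17, edgeR adjusted p 0.0305). Tmigd1, an adhesion molecule of enterocytes, rose from 0.288 to 0.582 CPM in wild-type to 1.08 to 3.20 CPM in knock-in tumours. The defining genes Slc26a3 and Car4 lay just outside the threshold, at 2.02 and 1.60 (edgeR adjusted p 0.0532 and 0.0533), and Car1 was at 0.82 (edgeR adjusted p 0.479). No member passed without knock-in tumour replicate 2 or without wild-type tumour replicate 3, and 1 or 2 without knock-in replicate 1 or the other wild-type tumours. Summed over the list, knock-in tumours held 5330, 4240 and 4541 CPM and wild-type tumours 3158, 3558 and 3010 CPM, while male normal colon held at least 6492 CPM in every library.

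General epithelial genes moved less. Epcam, Cdh1 and Krt8 had log2 fold changes of 0.30, 0.32 and 0.05, none past the threshold (edgeR adjusted p 0.105, 0.0771 and 0.823). Tspan8, a tetraspanin of the gut epithelium, measured 199, 211 and 161 CPM against 94.0, 86.1 and 76.5 CPM and passed in every alternative setting (1.15, SE 0.20, edgeR adjusted p 0.00400). The intestinal identity factor Cdx1 rose by 0.71 (SE 0.18, edgeR adjusted p 0.0192), and Krt18 fell by 0.41 (SE 0.13, edgeR adjusted p 0.0382). The Krt18 call was lost without any of the 6 tumour libraries.

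Among 12 enteroendocrine genes, 3 rose and 0 fell, or 25.0% called against 14.5% over all genes tested. Neurod1, a transcription factor of hormone-producing cells, measured 1.90, 2.19 and 1.27 CPM in knock-in and 0.144, 0 and 0.460 CPM in wild-type tumours (2.83, SE 0.61, edgeR adjusted p 0.00972). Gcg, the proglucagon gene, rose by 2.05 (SE 0.45, edgeR adjusted p 0.0101), and Scg2, a granule protein, was the other call (1.20). The defining genes Chga and Chgb had log2 fold changes of 0.78 and 0.35 with overlapping values (edgeR adjusted p 0.288 and 0.594), and without wild-type tumour replicate 1 no member passed. Tuft cell genes were mixed, with a log2 fold change above 0 in 3 and below 0 in 5 of the 8 tested. Their sum was 103, 62.2 and 110 CPM in knock-in against 170, 194 and 179 CPM in wild-type tumours, but only Hpgds, a prostaglandin D synthase, passed among the 8 tested (-0.78, SE 0.18, edgeR adjusted p 0.0123), and the call was lost without knock-in tumour replicate 2. The defining genes Dclk1, Trpm5 and Pou2f3 did not pass (0.56, -0.29 and -1.16, with edgeR adjusted p of 0.0617, 0.683 and 0.305). The tuft sum of wild-type female tumours, 111 to 139 CPM, was also below that of every wild-type male tumour.

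**Figure D3:**
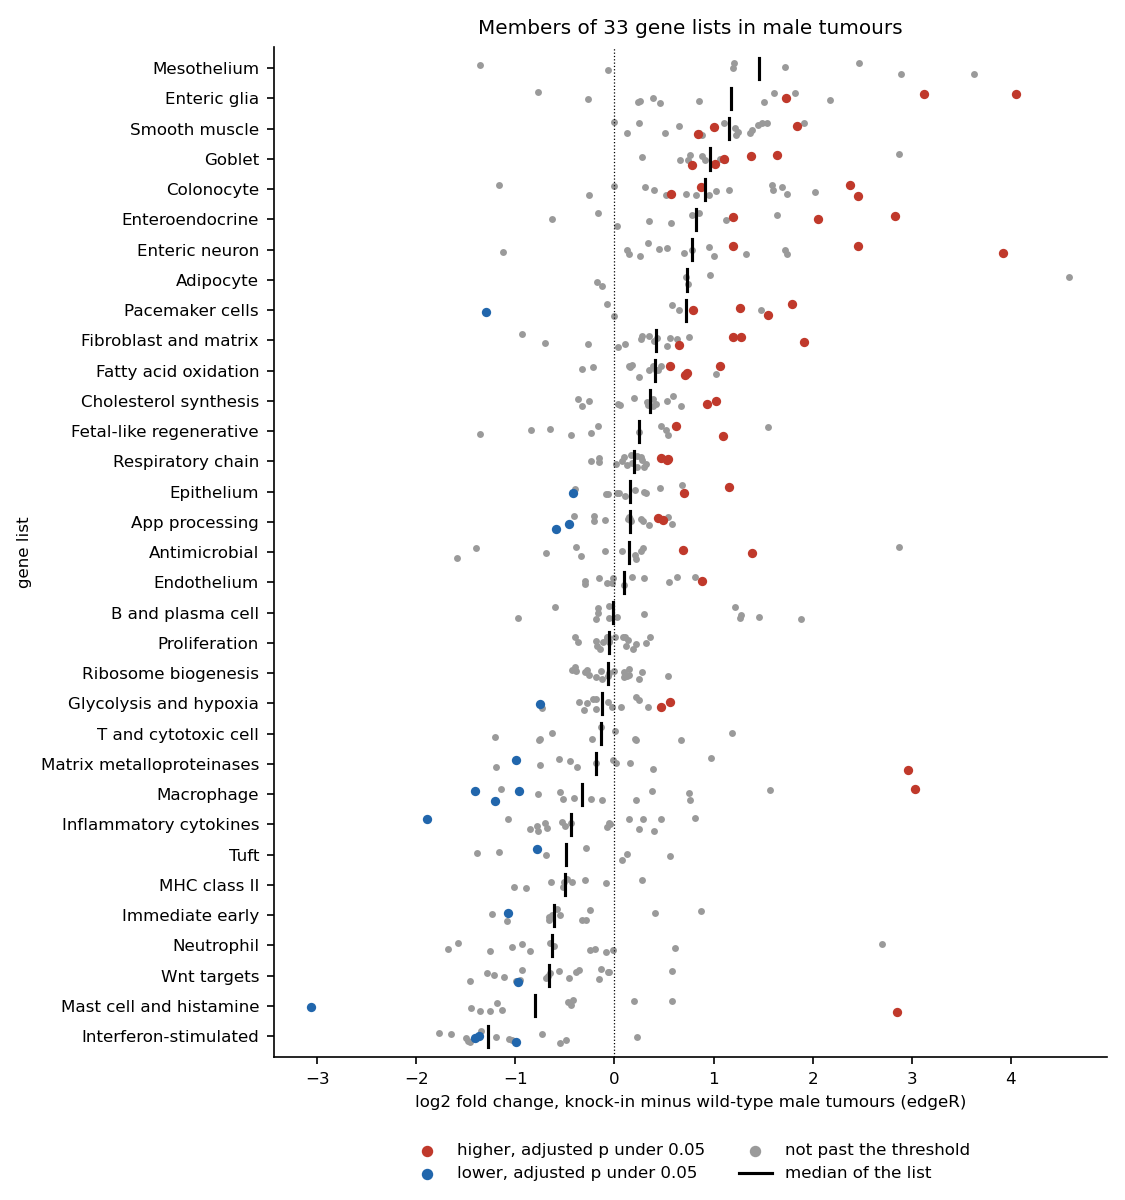
Each dot is 1 member of a gene list placed at its edgeR log2 fold change (knock-in minus wild-type male tumours), with genes past an adjusted p of 0.05 in red (higher) or blue (lower) and the list's median as a bar. The 33 lists are ordered by median, from 1.46 for mesothelium, in which 0 of 8 members passed, to -1.27 for interferon-stimulated genes, in which 3 of 16 passed.

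Wnt target genes were on the lower side, with a median log2 fold change of -0.66. The value was negative in 19 of 20, against 7300 of all 15936 genes tested. Only Myc passed, or 5.0% of the list, near the 5.23% lower over all genes tested. Wild-type female tumours summed to 3812, 4168 and 4497 CPM on this list, below the 5096 to 5413 CPM of wild-type male tumours. Knock-in male tumours held 2279 to 4006 CPM. Myc, a driver of cell growth, measured 65.2, 51.3 and 55.1 CPM in knock-in and 97.9, 112 and 126 CPM in wild-type tumours (-0.97, SE 0.29, edgeR adjusted p 0.0343). The call was lost without any of the tumour libraries other than knock-in replicate 1. Axin2, a feedback inhibitor of the pathway, measured 447, 186 and 379 CPM against 627, 638 and 695 CPM, without overlap, yet did not pass (-0.95, SE 0.42, edgeR adjusted p 0.126). Notum, a secreted Wnt inhibitor, was at -0.996 (SE 0.89, edgeR adjusted p 0.459). Lgr5, the crypt stem cell marker, was the 1 member with a positive value (0.58, SE 0.55, edgeR adjusted p 0.482). Knock-in replicate 2 was the lowest of the 6 tumours in Axin2, at 186 CPM, and in Notum, at 49.4 CPM against 145 CPM or more in the others.

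Of the 20 proliferation genes, 0 passed in either direction in edgeR, DESeq2 or limma voom and 0 had an unadjusted edgeR p under 0.05. Their median was -0.05, and the sums of the groups overlapped at 1072, 2179 and 1695 CPM against 1759, 1476 and 1599 CPM. Mki67 had a log2 fold change of 0.01 with an SE of 0.21 (edgeR adjusted p 0.983). The 20 ribosome biogenesis genes gave 0 calls in edgeR as well (median -0.06), with 4 at an unadjusted p under 0.05 and 1 higher and 1 lower call in DESeq2. They include Ncl (0.10, SE 0.16, edgeR adjusted p 0.697) and Fbl (-0.39, SE 0.14, edgeR adjusted p 0.0597), both needed in the nucleolus. In the fetal-like program that injured gut epithelium can take on, 2 of 13 genes rose, or 15.4%, near the 14.5% of genes called overall. The EGF receptor ligand gene Areg measured 38.7, 26.7 and 29.3 CPM against 14.1, 17.7 and 13.1 CPM (1.10, SE 0.20, edgeR adjusted p 0.00433) and passed in every alternative setting, and Anxa3 rose by 0.62 (SE 0.12, edgeR adjusted p 0.00721), a call lost without knock-in tumour replicate 2 (edgeR adjusted p 0.0517). The defining genes Ly6a, Anxa1 and Clu did not pass (0.54, 1.55 and -0.17, with edgeR adjusted p of 0.229, 0.0983 and 0.788).

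Genes of fuel oxidation were higher in part. In fatty acid oxidation 4 of 16 rose and 0 fell (median 0.40), or 25.0% called against 14.5% over all genes tested. Acadm, a medium-chain acyl-CoA dehydrogenase, measured 62.6, 78.3 and 65.5 CPM against 42.5, 39.6 and 44.1 CPM (0.71, SE 0.18, edgeR adjusted p 0.0170). Hadhb, a subunit of the mitochondrial trifunctional protein, rose by 0.73 (SE 0.16, edgeR adjusted p 0.0104). Ppara, a lipid-sensing nuclear receptor, rose by 1.07 (SE 0.28, edgeR adjusted p 0.0220), and the ketone enzyme gene Bdh1 by 0.56 (SE 0.15, edgeR adjusted p 0.0245). Without knock-in tumour replicate 2, none of the 16 passed, and without wild-type tumour replicate 1 or 2, 1. The count was 2 with the GC and length offset, 1 with the smooth muscle covariate and between 0 and 8 over all settings that kept every library. Of 18 nuclear genes of the respiratory chain, 3 rose (Ndufs1, Uqcrc2 and Uqcrfs1, by 0.54, 0.53 and 0.47) and 0 fell, a share of 16.7% called that is near the 14.5% over all genes tested. Without knock-in tumour replicate 2, and likewise without wild-type tumour replicate 1, 0 of the 18 passed. Glycolysis and hypoxia genes were mixed, with Pdk1 and Pfkp higher (0.56 and 0.47) and Ndrg1, a hypoxia-induced gene, lower at 75.8, 129 and 120 CPM against 166, 217 and 166 CPM (-0.75, SE 0.16, edgeR adjusted p 0.00866). In cholesterol synthesis Msmo1 and Idi1 rose, by 1.02 and 0.93, and the other 14 genes did not pass. The calls of Pdk1, Pfkp, Msmo1 and Idi1 were all lost without knock-in tumour replicate 2 and without any one of the wild-type tumours, and that of Ndrg1 in none of these cases.

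**Figure D4:**
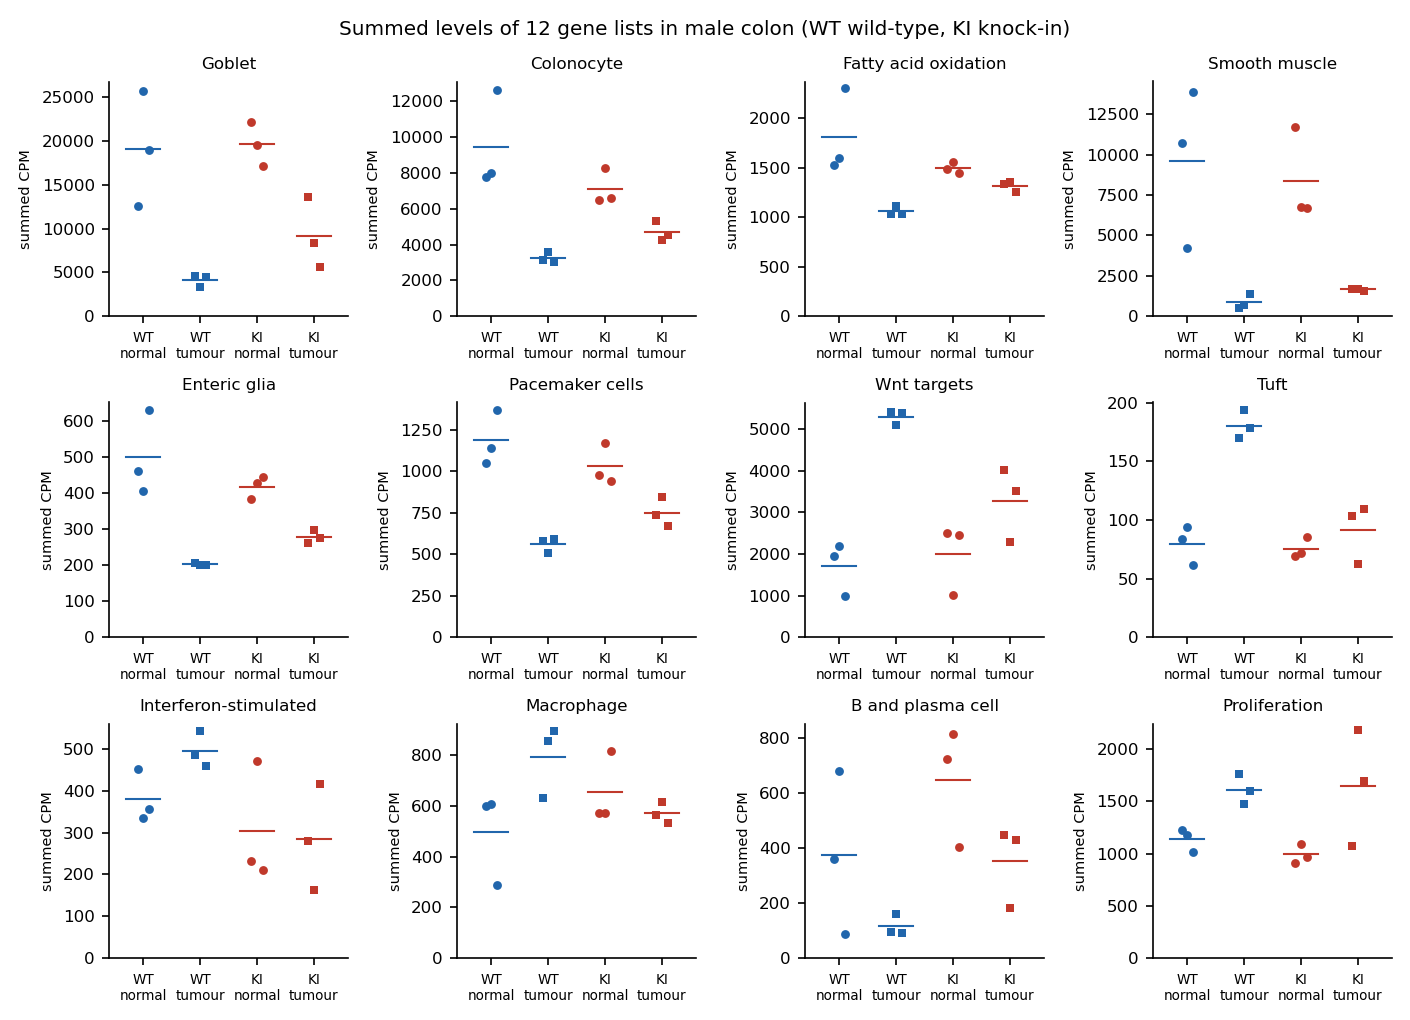
Summed CPM of 12 gene lists in each male library, with circles for normal colon, squares for tumours and a line at each group mean. For goblet, colonocyte, fatty acid oxidation, enteric glia and pacemaker genes the knock-in (KI) tumours lie between the wild-type (WT) tumours and the mean of normal colon, and for proliferation genes the tumour groups overlap.

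Genes of the muscle wall and its nerves mostly had higher levels in knock-in tumours, but few passed. Of 20 smooth muscle genes, 19 had a positive log2 fold change (median 1.16), against 8636 of all 15936 genes tested. Only 3 passed, or 15.0%, about the 14.5% over all genes. Their sum was 1714, 1693 and 1582 CPM in knock-in tumours and 543, 725 and 1365 CPM in wild-type tumours, against 4214 to 13860 CPM over the 6 male normal libraries. Pgm5, found at muscle attachment sites, measured 59.1, 59.6 and 41.9 CPM against 5.83, 7.85 and 29.5 CPM (1.85, SE 0.50, edgeR adjusted p 0.0273). Myocd, a transcriptional coactivator of smooth muscle genes, rose by 1.00 (edgeR adjusted p 0.0260). The defining genes Acta2, Myh11 and Tagln did not pass (0.88, 1.22 and 1.23, with edgeR adjusted p of 0.120, 0.150 and 0.0853). In each of them wild-type tumour replicate 3 stood above the other wild-type tumours, with 259 CPM of Myh11 against 48.6 and 56.4 CPM. Without that library 10 of the 20 passed, and without knock-in tumour replicate 2 or wild-type tumour replicate 1 or 2, none. Without knock-in tumour replicate 1, 1 passed. With the summed smooth muscle level as a covariate, 960 genes passed in the whole comparison.

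The 10 genes of the pacemaker cells that pace gut contractions gave 4 higher and 1 lower call. Etv1, a transcription factor of interstitial cells of Cajal, measured 5.44, 7.09 and 9.19 CPM against 1.87, 1.75 and 2.49 CPM and passed in every alternative setting (1.79, SE 0.35, edgeR adjusted p 0.00673). Thbs4, Kcnn3 and Gpr20 rose by 1.55, 1.26 and 0.79, while the calcium channel gene Cacna1h fell by 1.29 (SE 0.36, edgeR adjusted p 0.0273). Kit and Ano1, the defining genes of these cells, had overlapping values (0.58 and 0.66, edgeR adjusted p 0.109 and 0.0537). In enteric glia 3 of 14 rose, or 21.4% called. Scn7a, a sodium channel of glia and Schwann cells, measured 17.8, 15.1 and 12.8 CPM against 3.17, 5.24 and 5.71 CPM and also passed in every setting (1.74, SE 0.24, edgeR adjusted p 0.00190). The other calls, Sox10 and Cdh19, rested on few counts, with at most 2 Sox10 counts and at most 1 Cdh19 count in a wild-type tumour library. Neuron genes gave 3 calls of 17, in Nos1, Vip and Tac1, a share of 17.6% that is near the 14.5% over all genes. The neuron marker Elavl4 stayed under 1 CPM in every tumour library, and no neuron gene passed without wild-type tumour replicate 1. The calls were 1 of 10 for pacemaker genes without knock-in tumour replicate 2 or wild-type replicate 1 or 2, and Scn7a alone for glia without wild-type replicate 1.

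In fibroblast and matrix genes 4 of 18 rose and 0 fell (median 0.42), or 22.2% called against 14.5% over all genes tested. Postn, a matrix protein of activated fibroblasts, measured 120, 194 and 132 CPM against 51.1, 75.6 and 68.4 CPM (1.20, SE 0.23, edgeR adjusted p 0.00570). Its call was kept without each library in turn and lost with the GC and length offset. Lum, Lox and Wnt5a rose by 1.91, 1.27 and 0.65 (edgeR adjusted p 0.0396, 0.0262 and 0.0181). Col1a1, Col1a2 and Col3a1 had log2 fold changes of 0.53, 0.56 and 0.43 and did not pass (edgeR adjusted p 0.217, 0.0581 and 0.122). The list had 1 call without knock-in tumour replicate 2, 2 without any one of the wild-type tumours and 0 with the GC and length offset. Among 13 matrix metalloproteinases Mmp3 was higher and Mmp11 lower, or 15.4% called. The Mmp3 call rested on knock-in replicates 2 and 3, at 88.5 and 24.9 CPM, while replicate 1 held 2.79 CPM and the wild-type tumours 3.50 to 5.83 CPM. Both calls were lost without knock-in tumour replicate 2 or wild-type replicate 1 or 3. Mmp7, Mmp10 and Mmp13 overlapped between the groups. In the endothelium list Tek alone, a receptor for angiopoietins, passed of 13 genes (0.88, edgeR adjusted p 0.0129), though not without knock-in replicate 2 or wild-type replicate 3, and Pecam1 stood at 0.30 (SE 0.24, edgeR adjusted p 0.400).

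Interferon-stimulated genes are switched on by interferon signals through transcription factors that bind a repeated GAAA motif called the interferon-stimulated response element. They had the lowest median of the 33 lists, -1.27, with 15 of 16 log2 fold changes negative. Of the 16 genes, 3 were lower and 0 higher, or 18.8% called against 14.5% over all genes tested. Between the genotypes in male normal colon the median of the list was -0.71. For the genotype difference in tumours minus that in normal colon it was -0.40, and whether the list differed between the tissues was not tested. The stretches upstream of the start sites of Rsad2, a called member, and of Isg15, a defining member that missed the threshold, are shown because they hold this motif. The sequences are RefSeq's (GRCm38.p6, both on the minus strand, 5′ to 3′, ending at the base before the start), with matches to GAAANNGAAA on either strand in capitals.
Rsad2, chr12:26456453-26456702: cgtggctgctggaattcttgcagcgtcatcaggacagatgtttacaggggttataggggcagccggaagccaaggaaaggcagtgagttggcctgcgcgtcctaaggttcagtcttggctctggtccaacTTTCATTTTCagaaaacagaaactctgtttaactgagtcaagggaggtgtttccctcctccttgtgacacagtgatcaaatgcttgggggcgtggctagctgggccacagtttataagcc
Isg15, chr4:156200819-156201068: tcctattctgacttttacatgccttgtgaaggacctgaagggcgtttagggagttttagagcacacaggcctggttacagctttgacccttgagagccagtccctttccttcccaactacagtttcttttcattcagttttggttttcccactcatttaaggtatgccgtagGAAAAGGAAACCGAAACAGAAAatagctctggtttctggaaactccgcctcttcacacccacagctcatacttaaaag
The first holds 1 match and the second 3 overlapping ones. Of the 12 list members in the RefSeq promoter table, 8 (66.7%) had at least 1 match within the 300 bases around the start site, against 3.99% of all 27025 genes there. The list was made of known interferon-stimulated genes, so a high share follows from the choice of list and says nothing about these tumours. Irf7, another called gene, had none, and Mx1 was not matched in the table.

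Rsad2, an antiviral enzyme, measured 6.53, 4.73 and 5.67 CPM in knock-in and 16.4, 18.03 and 10.8 CPM in wild-type tumours (-1.40, SE 0.39, edgeR adjusted p 0.0270). Irf7, a regulator of interferon production, measured 36.5, 19.7 and 39.7 CPM against 63.9, 66.9 and 59.7 CPM (-0.99, SE 0.27, edgeR adjusted p 0.0254), and Mx1 was at -1.37 (SE 0.42, edgeR adjusted p 0.0365). The wild-type tumours were above the knock-in tumours without overlap in all 3 genes. Isg15 was at -1.77 (SE 0.69, edgeR adjusted p 0.0903) and Ifit1 at -1.20 (edgeR adjusted p 0.247). No member passed without knock-in tumour replicate 2 or without wild-type tumour replicate 1 or 2. Wild-type female tumours averaged 5.67 CPM of Rsad2, 31.5 CPM of Irf7 and 3.67 CPM of Mx1, each nearer to the knock-in than to the wild-type male tumours.

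Macrophage genes split. Cd163, a scavenger receptor of resident macrophages, measured 3.33, 6.27 and 2.15 CPM in knock-in and 0.576, 0 and 0.552 CPM in wild-type tumours (3.04, SE 0.63, edgeR adjusted p 0.00865), and it passed in every alternative setting. Cd68, a lysosomal protein of macrophages, was lower at 8.50, 6.74 and 7.14 CPM against 12.0, 16.6 and 15.5 CPM (-0.97, SE 0.25, edgeR adjusted p 0.0192). The complement genes C1qa and C1qc were lower too (-1.41 and -1.21, edgeR adjusted p 0.0302 and 0.0305). All 3 lower calls were lost without knock-in tumour replicate 2, and likewise without wild-type tumour replicate 2 or 3. The defining genes Csf1r and Emr1 did not pass (-0.55 and -0.13, with edgeR adjusted p of 0.166 and 0.775), so that 1 of 16 members rose and 3 fell. That is 25.0% called, against 14.5% over all genes tested. Summed over the list, knock-in male tumours held 532 to 615 CPM and wild-type male tumours 631 to 893 CPM. Wild-type female tumours, at 445 to 527 CPM, lay below both.

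Of the other immune lists, inflammatory cytokines gave 1 lower call among 19, or 5.26%, near the 5.23% lower over all genes tested. Tnf measured 5.37, 5.20 and 10.4 CPM in knock-in and 13.1, 49.7 and 16.5 CPM in wild-type tumours (-1.89, SE 0.54, edgeR adjusted p 0.0309). Il6 and Il1a did not pass (-0.78 and -0.68, edgeR adjusted p 0.657 and 0.533). Junb was the 1 call among 14 immediate early genes (-1.08, SE 0.27, edgeR adjusted p 0.0204), or 7.14% called against 14.5% over all genes tested. The calls of Tnf and Junb were both lost without knock-in tumour replicate 1 or 2 or wild-type tumour replicate 2. Neutrophil, T cell and MHC class II genes gave 0 calls in edgeR and DESeq2, and 0 of them had an unadjusted edgeR p under 0.05. B and plasma cell, adipocyte and mesothelium genes gave 0 calls in edgeR, with 3, 2 and 2 at an unadjusted p under 0.05, and 1 higher call each in DESeq2. The B and plasma cell genes summed to 450, 181 and 432 CPM in knock-in and 96.6, 163 and 91.0 CPM in wild-type tumours without overlap, while their median log2 fold change was -0.01. Igj, the joining chain of secreted antibodies, made up most of these sums at 420, 157 and 353 CPM against 64.3, 133 and 57.4 CPM (1.89, SE 0.72, edgeR adjusted p 0.0877). The adipocyte markers Adipoq and Lep were at 0 counts in all 6 tumours. Summed over the whole adipocyte list, knock-in tumours held 27.88, 26.6 and 203.6 CPM and wild-type tumours 19.86, 26.46 and 28.25 CPM. The high sum was that of knock-in tumour replicate 3 alone. In the antimicrobial list, the polymeric immunoglobulin receptor gene Pigr and Reg4, a lectin of secretory cells, rose by 0.69 and 1.39 (edgeR adjusted p 0.0196 and 0.0366), and neither passed without wild-type tumour replicate 1 or 3. These were the 2 calls of 14, or 14.3%, near the 14.5% over all genes tested. Reg3b, an antibacterial lectin, ranged from 0.368 to 25.4 CPM among the wild-type tumours alone. Over all 33 lists, 12 sums did not overlap between the tumour groups. Among all single genes tested, the CPM of 36.4% did not overlap. Each of the 12 sums had the smallest two-sided exact permutation p that 3 against 3 libraries allow, 0.1 (0.275 after adjustment over the 33).

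The largest single increases often came from 1 library. Lrtm1 held 130 counts in knock-in replicate 3 against 7 and 19 in the others, and at most 1 count in each wild-type tumour (edgeR adjusted p 0.0136). Nos1, the neuronal nitric oxide synthase, measured 2.38, 0.946 and 16.6 CPM in knock-in and 0.216, 0 and 0.828 CPM in wild-type tumours (3.92, SE 0.94, edgeR adjusted p 0.0155). Ppp1r3c, which targets a phosphatase to glycogen, had the same shape, at 4.15, 3.55 and 34.9 CPM against 1.08, 0 and 2.03 CPM. All 3 calls were lost without knock-in replicate 3, and also without wild-type replicate 1. Replicate 2 led in Pi15, with 53.9 CPM against 3.61 and 11.1 CPM, and in Csta1, with 20.04 CPM against 3.33 and 3.62 CPM, and the calls of both were lost without it or without any one of the wild-type tumours. Foxp2, a transcription factor, was also highest in replicate 2 and lost its call without it, and C7, a terminal complement component, likewise. Both were lost without wild-type tumour replicate 1 as well, and C7 without replicate 2 or 3.

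A4gnt behaved differently. It encodes the enzyme that caps mucin O-glycans with alpha-linked N-acetylglucosamine, and it measured 9.45, 8.28 and 27.8 CPM in knock-in against 1.73, 2.33 and 1.38 CPM in wild-type tumours (3.12, SE 0.53, edgeR adjusted p 0.00400). It passed in all 20 settings. Male normal colon averaged 8.20 CPM in knock-in and 8.05 CPM in wild-type animals, so the low group was the wild-type tumours. The retinal dehydrogenase gene Aldh1a1 had the same order, with 11.4, 18.1 and 13.8 CPM against 2.66, 2.91 and 3.77 CPM (2.20, SE 0.39, edgeR adjusted p 0.00439). Its neighbour Aldh1a7, a close paralog with which it could share reads, measured 2.18, 14.6 and 3.62 CPM against 0.864, 0.582 and 0.736 CPM (3.15, SE 0.64, edgeR adjusted p 0.00801).

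Several of the largest decreases were in genes that were higher in the wild-type male tumours than in every other male library. Hdc, which makes histamine, measured 4.97, 4.37 and 6.06 CPM in knock-in and 26.7, 50.6 and 51.1 CPM in wild-type tumours. Male normal colon averaged 2.61 CPM in knock-in and 4.38 CPM in wild-type animals. The mast cell genes Cpa3 and Mcpt1 overlapped between the tumour groups (-0.43 and -1.35, edgeR adjusted p 0.730 and 0.275), while Hnmt, which breaks histamine down, was higher in knock-in tumours, at 1.17 to 1.54 CPM against 0 to 0.291 CPM, a call lost without knock-in replicate 2 or any one of the wild-type tumours. Hdc lost its call only without knock-in tumour replicate 2, with an edgeR adjusted p of 0.0674. H2afy2, the histone variant macroH2A2, measured 6.26, 3.02 and 5.48 CPM against 22.9, 25.0 and 19.6 CPM (-2.19, SE 0.29, edgeR adjusted p 0.00190). Kcnb2, a voltage-gated potassium channel subunit, measured 8.03, 3.13 and 8.22 CPM against 22.9, 36.4 and 23.7 CPM (-2.09, SE 0.44, edgeR adjusted p 0.00903), and Hist3h2ba, a histone H2B gene, fell by 2.18 (SE 0.44, edgeR adjusted p 0.00738). These last 3 passed in all 20 settings. Gprc5c, an orphan receptor, fell by 2.20 on the log2 scale (SE 0.46, edgeR adjusted p 0.00903) and lost its call only with the compared groups alone in the fit.

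Dach2, Otop2, Ush1g and Fam19a2 were lower as well, with log2 fold changes between -2.37 (Otop2) and -2.88 (Fam19a2), but between 6 and 13 of their alternative settings ended the call. Otop2, a proton channel, averaged 10.3 CPM in wild-type female and 10.1 CPM in wild-type male tumours, and Ush1g 9.89 and 9.84 CPM. Erdr1 was high in wild-type tumour replicate 3 alone, at 37.8 CPM against 2.81 and 3.49 CPM, and lost its call without it or without knock-in replicate 2.

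A set of 214 genes (1.34% of those tested) passed in all 20 alternative settings, 150 higher (0.941%) and 64 lower (0.402%), and the genes named here were chosen from it after their values were seen. Among the higher ones, Kcnma1, a calcium-activated potassium channel, had the lowest p and measured 52.8, 35.9 and 34.1 CPM against 11.2, 10.8 and 15.4 CPM (1.70, SE 0.17, edgeR adjusted p 0.000158). Prkaa2, a catalytic subunit of the energy sensor AMPK, measured 166, 147 and 116 CPM against 32.6, 37.8 and 35.4 CPM (2.02, SE 0.23, edgeR adjusted p 0.000370). Lrig1, which restrains EGF receptor signalling in crypt stem cells, measured 120, 210 and 161 CPM against 78.9, 53.2 and 74.1 CPM (1.24, SE 0.18, edgeR adjusted p 0.00253). The nuclear receptor gene Pparg rose by 1.19 (SE 0.19, edgeR adjusted p 0.00350). For these genes the mean of each normal colon group of males was also above the wild-type tumours, at 85.9 CPM (knock-in) and 74.5 CPM (wild-type) for Kcnma1.

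Among the lower genes of that set, Csf1, the growth factor of macrophages, measured 27.5, 23.4 and 28.6 CPM against 52.3, 60.8 and 55.0 CPM (-1.08, SE 0.15, edgeR adjusted p 0.00190). Grn, the progranulin gene, measured 209, 163 and 235 CPM against 362, 350 and 345 CPM (-0.80, SE 0.13, edgeR adjusted p 0.00395). Nfkb2, a subunit of NF-kappaB, fell by 0.70, Tgfb1, a growth factor of repair, by 0.73, and Lfng, a modifier of Notch receptors, by 0.87 on the log2 scale. In Csf1 and Lfng the knock-in tumours were near the means of male normal colon, which averaged 28.1 and 26.6 CPM for Csf1 and 26.4 and 24.6 CPM for Lfng.

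The called genes were then looked up in wild-type females, whose tumours and normal colon share no library with the male tumours. Of the 1482 genes higher in knock-in male tumours, 972 (65.6%) were lower in female tumours than in female normal colon and 31 (2.09%) were higher, against 24.0% lower and 25.0% higher (49.1% in all) over the genes tested. Of the 833 lower genes, 482 (57.9%) were higher in female tumours and 31 (3.72%) lower. The shares were 90.7% lower for the 150 genes higher in every setting, and 68.8% higher for the 64 lower ones. The 972 genes were 25.4% of all genes lower in female tumours, and the 482 genes 12.1% of all genes higher there. Male normal colon, which shares no library with the tumours either, had a positive log2 fold change between the genotypes for 33.9% of the higher genes and 66.0% of the lower genes, against 50.1% of all genes. The median there was -0.07 for the higher and 0.07 for the lower genes.

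**Figure D5:**
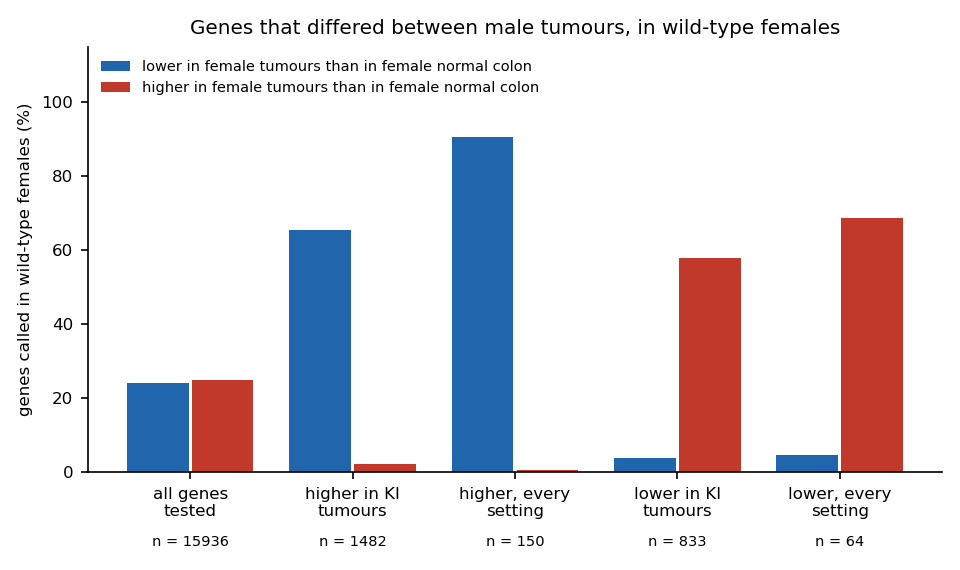
Share of genes (%) called lower (blue) or higher (red) in wild-type female tumours against wild-type female normal colon, for all genes tested and for the genes that differed between male knock-in (KI) and wild-type tumours. The genes higher in knock-in tumours were lower in female tumours in 65.6% of cases, against 24.0% of all genes.

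The difference between genotypes was also compared between tumours and normal colon of males as an interaction, which 240 genes passed (1.51%), 181 with a positive (1.14%) and 59 with a negative value (0.370%). DESeq2 called 1326 genes. With the GC and length offset edgeR called 0 (2754 at an unadjusted p under 0.05), and with the smooth muscle covariate 0 (3394 unadjusted). It also called 0 without knock-in tumour replicate 2, wild-type tumour replicate 1 or 2, knock-in normal replicate 1 or 3, or wild-type normal replicate 3, with 2706 to 3708 at an unadjusted p under 0.05, and it called 2104 without knock-in normal replicate 2. A4gnt, Aldh1a1 and Aldh1a7 were the named genes with the largest positive value and Kcnb2, H2afy2 and Zfp783, a zinc finger gene, those with the largest negative one. Zfp783 measured 1.56, 1.89 and 3.72 CPM in knock-in tumours, 7.84, 9.31 and 10.3 CPM in wild-type tumours and 7.06 and 6.54 CPM on average in knock-in and wild-type normal colon. In this gene the knock-in tumours were the group that stood apart.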

How the data were processed

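Total RNA of colon tissue was depleted of ribosomal RNA and sequenced after random priming, per the labels' protocols. Raw counts per gene were deposited by the authors, and their processing notes name Trimmomatic, HISAT2, featureCounts and DESeq2 with the build mm10. Versions, annotation and strand setting were not given in the sources used here, so reads of a gene and its antisense partner, or of near-identical genes, cannot be told apart. The authors' deposited table holds log2 fold changes and adjusted p-values, per the file headers. It was used only for the number of genes it calls and for the sign of its log2 fold changes. The sign was the same for all 2315 genes called here, which come from the same counts.

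The 21 libraries (3 in each of 7 groups) were fitted together with edgeR 4.0.16 in R 4.3.3 (TMM scaling, filterByExpr by group, robust quasi-likelihood), which tested 15936 of 24062 genes, with Benjamini-Hochberg adjustment over all of them and a threshold of 0.05. Standard errors (SE) were worked back from the test, as the absolute log2 fold change divided by the square root of its F statistic. CPM are counts per 1000000 counts of the TMM-scaled library size. One count in the shallowest library (3414123 counts) weighs most, and a gene at 0 there could be as high as 0.872 CPM (3 counts), a limit for counting error only. Simulated counts with known changes were used to test the fit. Summed list levels were compared with two-sided exact permutation tests in scipy 1.17.1. Alternatives used DESeq2 1.42.0 and limma 3.58.1 (voom), other scalings, filters, covariates and each tumour library left out, and the voom fit on the compared groups alone was chosen after seeing the data. Replicate numbers did not pair the libraries. Promoters are from RefSeq (GRCm38.p6).

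Genes were named by rule: App, the genes called in normal colon, the 10 largest changes each way among genes with a mean of at least 50 counts in a tumour group and no overlap between the groups, 3 each way for the interaction, and in each list the first 3 genes and up to 5 called members. Tmigd1, Scg2, Cdh19, Hnmt, Igj and the genes called in every setting were named after their values were seen. Some genes that the rule picks are not reported here. The comparison and the gene lists were chosen with earlier results of these data known.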

Additional observations from a re-analysis of the deposited data

Results flagged for a closer look

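A test of the interaction itself, between tumours and normal colon of males, called 240 genes in edgeR, including 6 named ones. The 6 were picked by size among genes that passed this test. With the replicate block, the GC and length offset or the smooth muscle covariate, 0 genes passed. Of 150 values of the 6 genes under alternative settings, 87 did not keep their side of the threshold. The interaction (tumours minus normal colon, log2) was 3.77 for Aldh1a7 (SE 0.83, edgeR adjusted p 0.0439), 3.09 for A4gnt (SE 0.69, edgeR adjusted p 0.0442) and 2.77 for Aldh1a1 (SE 0.52, edgeR adjusted p 0.0406). In these 3 genes the wild-type tumours were lower than the other male groups on average. It was -2.53 for Kcnb2 (SE 0.62, edgeR adjusted p 0.0481), -2.36 for H2afy2 (SE 0.41, edgeR adjusted p 0.0406) and -2.07 for Zfp783 (SE 0.46, edgeR adjusted p 0.0442). In Kcnb2 and H2afy2 the wild-type tumours were the highest group of males and in Zfp783 the knock-in tumours were the lowest. The knock-in tumours, which took part in each of these values, were also the group with the largest spread between libraries.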

How the results depend on the processing

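The 2315 genes of the tumour comparison became 1438 when the fit held only the compared groups, 1002 with the GC and length offset (842 of them shared with the 2315), 960 with the smooth muscle covariate and 683 with the replicate block and that offset together. Leaving out 1 tumour library gave 429 to 2251. With the replicate number as a block alone 1829 genes passed. Same-numbered libraries did not deviate together (mean correlation -0.12 over 3 pairs), so the numbers were not taken as pairs. The share of higher genes, 64.0%, was 51.8% with only the compared groups, 53.9% with limma voom, 51.4% with the block and offset, 50.1% with voom on the compared groups (2307 genes) and 74.1% without knock-in tumour replicate 2. The median log2 fold change of all genes stayed between 0.03 and 0.05 under the other scalings.

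The 240 interaction genes became 95 without a low-count filter, 408 with a mean of at least 50 counts, 1326 with DESeq2, 1151 with voom, 1 with only the compared groups and 2 with late-numbered libraries as a covariate. They became 0 with the replicate block (3709 at an unadjusted p under 0.05), 0 with the GC and length offset, 0 with both and 0 with the smooth muscle covariate. Leaving out 1 male library gave 0 to 2104. The 2 genes of normal colon became 6 with DESeq2, 0 with only the compared groups (361 at an unadjusted p under 0.05), 3 with the replicate block and 4 with the block and the offset. None of the named results reversed under these alternatives. Of 453 values of the 23 named tumour genes, 349 kept their side of the threshold and 104 did not. Of 150 values of the 6 named interaction genes, 63 kept it and 87 did not. Of 1320 list counts, 1047 stayed within 1.5 times the reported one. The cause of these shifts was not tested. Wild-type tumour replicate 2 has the fewest counts, and genes near its floor of 0.872 CPM are least well measured.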

Other observations

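Enzymes and carriers that build glycans were counted in families put together after the values of Agr2, Galnt12 and A4gnt had been seen, so the counts are a description. Of 110 tested genes, 35 were higher and 1 was lower in knock-in tumours, where 9.30% of all genes were higher and 5.23% lower, with a median log2 fold change of 0.34 against 0.05 over all genes, and 16 were called in every setting. The Galnt enzymes, which start mucin-type O-glycans, gave 6 higher calls of 14. The Gcnt enzymes and A4gnt, which branch or cap these glycans, gave 3 of 6, and the fucosyltransferases 3 of 7. Enzymes that make the activated sugars gave 8 of 18 and the Slc35 carriers, many of which bring sugar nucleotides into the Golgi, 6 of 22. Among 18 sialyltransferases 4 were higher and 1 lower, and among 11 sulphotransferases of the Chst family 1 was higher.

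The genes higher in every setting had a median GC content of 46.1% and a median transcript length of 4122 bases, and the genes lower in every setting 55.2% and 3489 bases, against 49.9% and 3274 bases over all genes tested. With an offset for GC content and transcript length in the fit, 1002 genes passed in place of 2315, 842 of them shared. The share of higher genes was then 51.5% in place of 64.0%. What lay behind the differences in GC content and length was not tested.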
